A study of Homo sapiens with 6 samples.

Results

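The genes described here belong to blood coagulation, the response of cells to thrombin, and the activation of plasminogen. They comprise tissue factor (F3), its inhibitor TFPI and the related inhibitor TFPI2, the thrombin receptor F2R, thrombomodulin (THBD), the protein C receptor (PROCR), the plasminogen activators PLAU and PLAT, and the urokinase receptor PLAUR. F2RL1 was also on the list of 10 genes, but no probe set carries its symbol alone in the array annotation, so it was not analysed here. All probe sets whose only symbol was one of these were taken, which gave 20 probe sets of 9 genes, out of 41091 probe sets and 19775 genes with a single symbol. The list was chosen from gene names with the signals of these 6 arrays already known. Differences between the lines are therefore given as a description, without a test.

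RNA came from 2 human ovarian carcinoma cell lines, labelled Caov-3 and SKOV-3, each on 3 arrays. In each line 1 array was from cells given the anti-IL-6 antibody siltuximab (CNTO328) for 4 h and then IL-6 at 30 ng/ml for 1 h. Another was from cells given IL-6 alone at that dose for 1 h, and the third from untreated cells. Each array held RNA pooled from 3 flasks, so a group had 1 array and no replicate, and precision is limited by this number. The labels used here do not state how much siltuximab was added, and cells with the antibody alone were not analysed here.

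The arrays had been scaled to the same 2% trimmed mean, 500.06 to 500.07. The ratio of 5' to 3' ACTB signal, a sign of RNA integrity, was lowest for IL-6 in Caov-3, at 0.494, and lay between 0.643 and 0.767 on the other arrays. Of 11 epithelial and ovarian carcinoma markers, 10 lay at or above the median signal on all 3 Caov-3 arrays and 6 on all 3 SKOV-3 arrays. KRT8 and KRT18 were high in both lines, while KRT19, CDH1, MUC16 and MSLN were high in Caov-3 and at 57.9 or less in SKOV-3. ERBB2, which is known to be amplified in SKOV-3, was at 1067, 1243 and 1017 on the Caov-3 arrays and at 733, 580 and 648 on the arrays labelled SKOV-3. That goes against the label, and SKOV-3 below means the line labelled so.

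Coagulation starts when tissue factor, a membrane protein, meets plasma factor VII; the complex activates factor X, which leads to thrombin. TFPI blocks that complex, and TFPI2, a secreted protein of the same inhibitor family, acts mainly on plasmin and trypsin-like proteases in the matrix. Thrombin cuts and thereby activates the receptor encoded by F2R, whereas thrombin bound to thrombomodulin turns on protein C, an anticoagulant held at the surface by PROCR. The activators PLAU (urokinase) and PLAT (tissue type) make plasmin from plasminogen, and PLAUR holds urokinase at the cell surface. Tumour cells are known to use these genes in invasion, and carcinomas with much tissue factor are linked to thrombosis.

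Promoters are shown for the inhibitors TFPI and TFPI2, which lay opposite ways between the lines, and for F3 and PLAUR, whose windows hold AP-1 motifs. RefSeq windows of 300 bases on GRCh38.p14 (250 before the gene start and 50 after) were read for 6 of the 9 genes. PLAU had 2 windows, and none of F2R, THBD or PLAT was read here. The windows below are on the minus strand, read 5' to 3' along the gene, with each match to the AP-1 motif TGANTCA in capitals.
F3, chr1:94541710-94542009: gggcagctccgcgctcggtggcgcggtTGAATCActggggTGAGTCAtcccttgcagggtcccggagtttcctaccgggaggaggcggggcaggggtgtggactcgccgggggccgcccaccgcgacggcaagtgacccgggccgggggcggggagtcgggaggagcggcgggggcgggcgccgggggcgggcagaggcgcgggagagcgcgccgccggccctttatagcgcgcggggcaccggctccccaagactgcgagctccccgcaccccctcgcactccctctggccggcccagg
TFPI, chr2:187554386-187554685: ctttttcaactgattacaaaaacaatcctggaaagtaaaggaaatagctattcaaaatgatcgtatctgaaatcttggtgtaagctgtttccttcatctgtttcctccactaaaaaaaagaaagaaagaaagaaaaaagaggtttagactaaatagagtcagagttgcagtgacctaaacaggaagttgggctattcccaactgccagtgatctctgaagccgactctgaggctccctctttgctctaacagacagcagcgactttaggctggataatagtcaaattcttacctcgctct
TFPI2, chr7:93890704-93891003: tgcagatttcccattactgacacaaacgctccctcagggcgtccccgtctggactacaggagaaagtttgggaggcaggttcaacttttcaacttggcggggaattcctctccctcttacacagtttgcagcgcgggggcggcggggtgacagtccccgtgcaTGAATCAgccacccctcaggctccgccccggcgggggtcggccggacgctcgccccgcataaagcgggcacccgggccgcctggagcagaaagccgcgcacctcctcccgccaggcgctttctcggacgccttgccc
PLAUR, chr19:43670120-43670419: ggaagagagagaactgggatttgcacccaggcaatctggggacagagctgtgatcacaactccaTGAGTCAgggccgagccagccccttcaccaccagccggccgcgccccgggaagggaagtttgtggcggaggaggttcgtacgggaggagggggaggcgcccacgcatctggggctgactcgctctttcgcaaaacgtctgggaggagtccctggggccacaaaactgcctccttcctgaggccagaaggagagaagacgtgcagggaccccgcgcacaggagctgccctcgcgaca

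The F3 window holds TGAATCA and TGAGTCA, with their first bases at -223 and -210 from the gene start. TFPI2 has TGAATCA at -87, and PLAUR has TGAGTCA at -186. The windows of TFPI, PLAU and PROCR hold no match, so that 3 of 7 windows have one, against 7.71% of 35116 RefSeq windows of the same length. The STAT motif TTCNNNGAA, of the kind STAT3 binds after IL-6, has no match in any of the 7 windows and is in 7.66% of all windows. Both motifs read the same on either strand in their fixed letters. CpG pairs numbered 38 in the F3 window, 26 in that of TFPI2, 18 in that of PLAUR and 4 in that of TFPI, where the median window has 14. GC boxes (GGGCGG on either strand) were counted 4 times in F3, 2 times in TFPI2 and 0 times in TFPI, and 45% of all windows hold at least 1. These matches describe the letters and say nothing of binding in these cells.

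Caov-3 and SKOV-3 were set side by side first. Of the 9 genes, 6 were at least 2-fold lower in Caov-3 (F2R, TFPI, THBD, PLAU, F3 and PROCR) and 1, TFPI2, was at least 2-fold higher. PLAT was lower in Caov-3 by less than 2-fold, and so was PLAUR by its brightest probe set, while another of its probe sets was higher in Caov-3. Among 12290 genes, 14.7% were at least 2-fold lower in Caov-3 and 20.1% at least 2-fold higher, so that differences of this size were common between the lines, and nothing is read from the count. All 9 genes passed the filter, which asked that at least 2 of the 6 arrays lie at or above their median. The 3 arrays of a line did not overlap with those of the other for 9 of 9 genes, a pattern that 74.1% of all genes shared. By the brightest probe set, Caov-3 lay below on all arrays for 8 of them (34.1% of all genes) and above for TFPI2 (40% of all genes). Log2 differences of 3 or more in size were seen for 5 of the 9, against 5.87% of all genes, and of 6 or more for 3 of the 9 (F2R, TFPI and TFPI2), against 0.57%. Nothing is read from these counts either, as the list was chosen with the signals known. The count past 6 also depends on the constant added to signals before log2, here 17.06. With 111 added, F2R was at -5.51 and TFPI at -4.69.

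Differences are given on the log2 scale of signal plus 17.06, the 20th percentile of all named values, as the mean of the 3 differences between arrays of the same treatment, with their SD. This scale understates the difference of a gene that is very dim in one line. Folds between the lines are on another scale, as the geometric mean of the 3 ratios of signals with no pseudocount, where signals under 17.06 were raised to it. Where all arrays of a line were under it, such a fold is a bound.

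**Figure D1:**
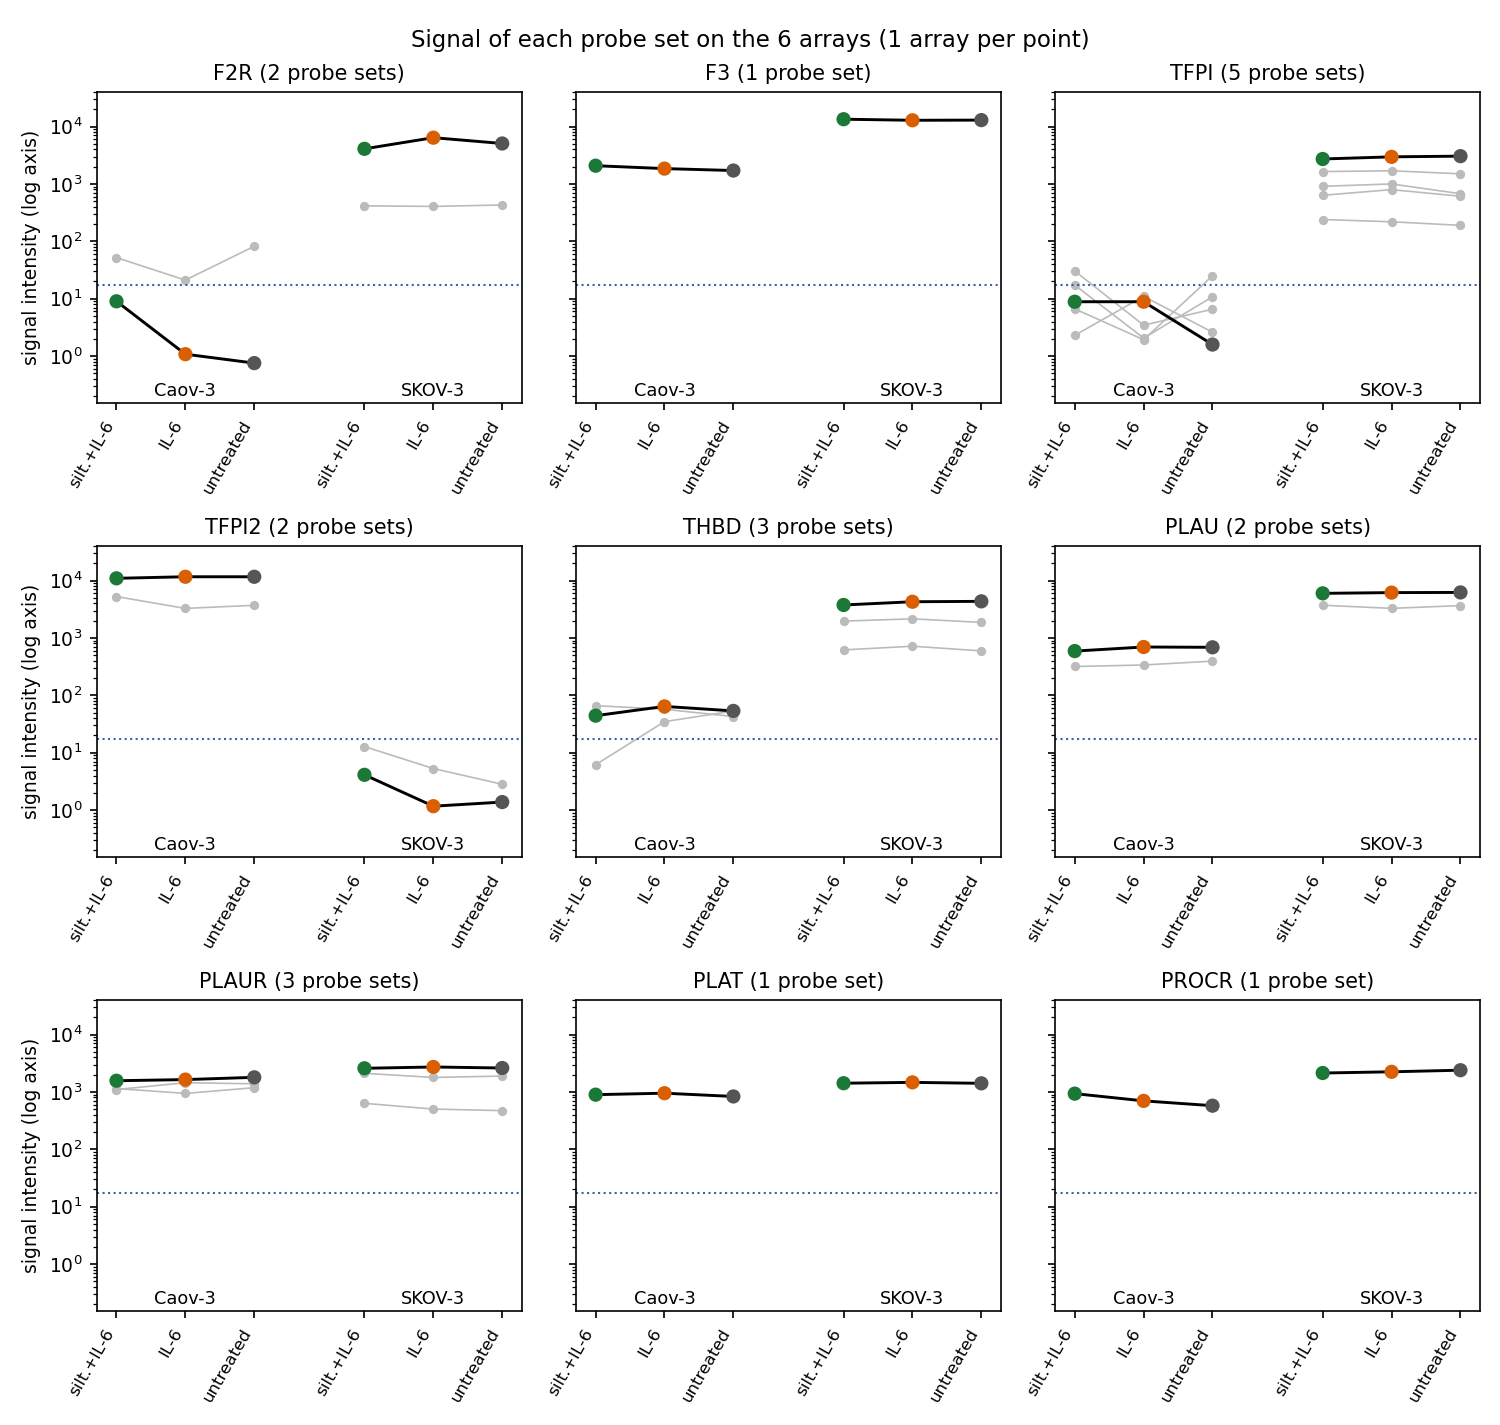
Signal intensity (log axis) of every probe set of the 9 genes on the 6 arrays, Caov-3 left and SKOV-3 right in each panel, with coloured points for the brightest probe set, grey ones for the others and a dotted line at the pseudocount of 17.06. By the brightest probe set, F2R and TFPI lie under that line on all Caov-3 arrays and TFPI2 on all SKOV-3 arrays.

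RNA of the factor that starts coagulation gave a signal well above the pseudocount in both lines. F3 was at 2078 with siltuximab and IL-6, 1851 with IL-6 and 1712 untreated in Caov-3, against 13428, 12861 and 12952 in SKOV-3 in the same order of treatments. The highest Caov-3 array was far below the lowest SKOV-3 array. The log2 difference was -2.79 ± 0.11 (SD, n = 3 pairs of arrays), and the ratio of signals was 6.98-fold lower in Caov-3. In RNA of whole cultures, fewer cells expressing a gene and less of its RNA per cell cannot be told apart.

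Its inhibitor TFPI was at 8.86, 8.86 and 1.59 in Caov-3 and at 2722, 2966 and 3050 in SKOV-3, again in the order siltuximab plus IL-6, IL-6 and untreated. The Caov-3 signals were all under the pseudocount. The log2 difference was -6.98 ± 0.34 (SD, n = 3), at least 171-fold lower in Caov-3. Its 4 further probe sets had log2 differences of -5.84, -5.04, -4.97 and -3.12. On every one of them the highest Caov-3 signal, 30.4 at most, was below the lowest in SKOV-3, 190 at least.

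TFPI2 stood the other way. It was at 10939, 11646 and 11633 in Caov-3 and at 4.12, 1.17 and 1.38 in SKOV-3, where all 3 arrays were under the pseudocount. The log2 difference was 9.21 ± 0.17 (SD, n = 3), at least 668-fold higher in Caov-3, and its second probe set gave 7.40 ± 0.18. By the brightest probe sets, each line thus had a high signal for 1 of these inhibitors and a signal near the bottom of the scale for the other. The 2 inhibitors lay opposite ways on all 7 probe sets of the pair. The dimmest TFPI probe set was only at 240, 219 and 190 in SKOV-3.

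The thrombin receptor gene F2R was low in Caov-3 by both its probe sets. Signals of the brightest were 9.01, 1.08 and 0.755 in Caov-3 and 4092, 6400 and 5069 in SKOV-3, a log2 difference of -7.97 ± 0.60 (SD, n = 3) and at least 299-fold lower in Caov-3. This probe set can also detect related sequences, as its name ends in _x_at. The second probe set, which has no such mark, was at 52.0, 21.1 and 82.0 in Caov-3 and at 415, 406 and 430 in SKOV-3, a log2 difference of -2.76 ± 0.66. The size of the F2R difference thus varied widely with the probe set.

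THBD, which diverts thrombin to the activation of protein C, was at 44.2, 64.1 and 53.5 in Caov-3 and at 3753, 4272 and 4341 in SKOV-3. The log2 difference was -5.87 ± 0.13 (SD, n = 3), and the ratio of signals was 77.2-fold lower in Caov-3, where THBD lay under the median of every array. Its further probe sets had log2 differences of -4.81 and -3.91. PROCR, the receptor for protein C, had a signal in both lines. It was at 934, 699 and 576 in Caov-3 and at 2136, 2244 and 2392 in SKOV-3, a log2 difference of -1.62 ± 0.42, with a ratio of signals 3.12-fold lower in Caov-3. PROCR had the largest spread in Caov-3 of the 6 genes that were counted there (SD 0.34 on the log2 scale), and its lowest SKOV-3 array was still more than 2-fold above its highest Caov-3 array.

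Among the plasminogen genes, urokinase (PLAU) was at 590, 695 and 687 in Caov-3 and at 5983, 6165 and 6208 in SKOV-3. Its log2 difference was -3.19 ± 0.10 (SD, n = 3), with a ratio of signals 9.34-fold lower in Caov-3, and the second probe set had a log2 difference of -3.29 ± 0.17. Tissue-type activator (PLAT) was much closer between the lines, at 896, 951 and 834 in Caov-3 and 1419, 1468 and 1413 in SKOV-3. Its log2 difference was -0.67 ± 0.07, with a ratio of signals 1.61-fold lower in Caov-3 and no overlap of the arrays.

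The urokinase receptor PLAUR gave opposite answers by probe set. The brightest was at 1568, 1641 and 1797 in Caov-3 and at 2583, 2722 and 2612 in SKOV-3, a log2 difference of -0.66 ± 0.11 (SD, n = 3), and the next gave -0.56 ± 0.33. The third was at 1146, 943 and 1184 in Caov-3 and at 633, 503 and 472 in SKOV-3, a log2 difference of 1.01 ± 0.25. Taken over all probe sets the PLAUR difference was -0.07, so no direction can be given for the gene as a whole. What the 3 probe sets match within the transcripts was not analysed here.

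**Figure D2:**
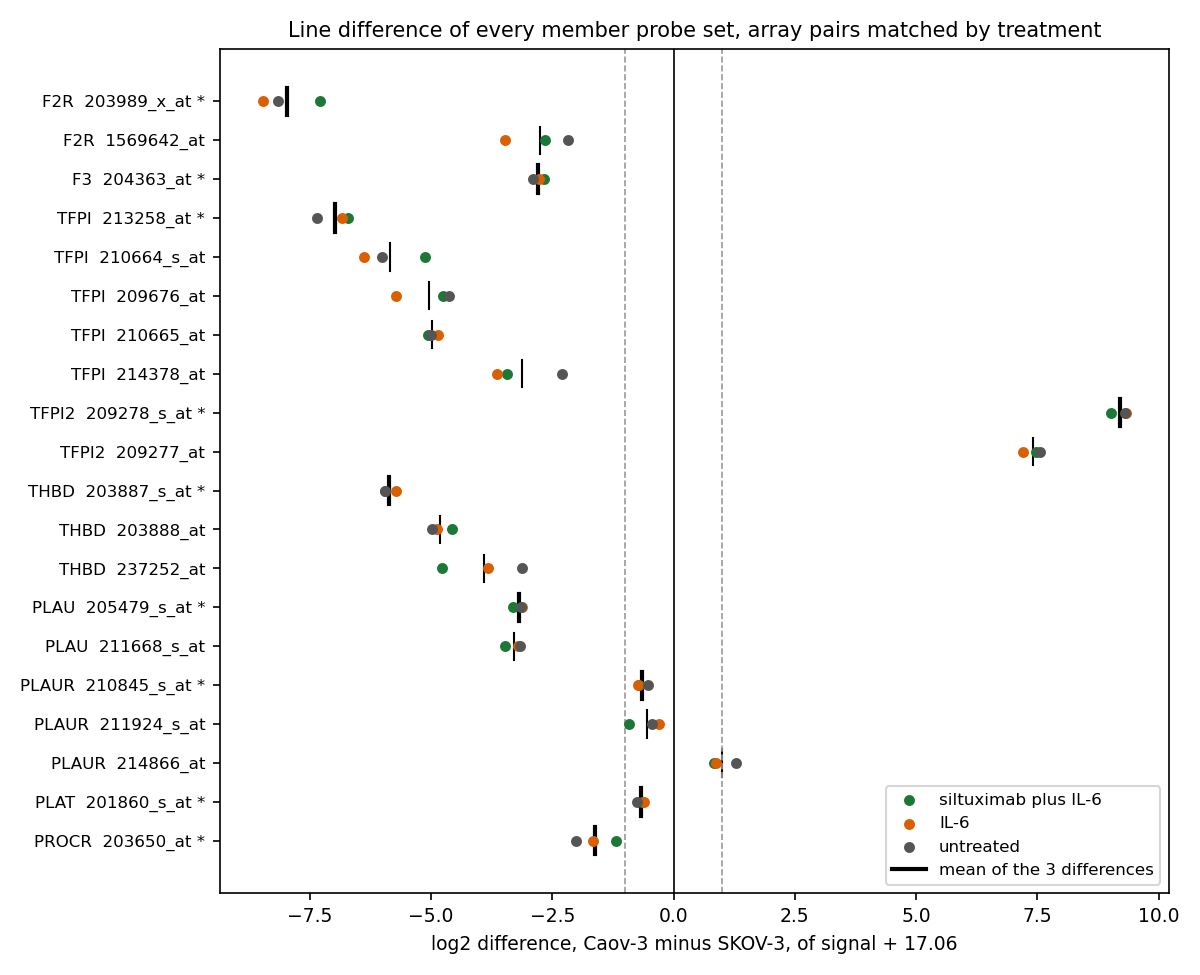
Log2 difference, Caov-3 minus SKOV-3, of signal plus 17.06 for each of the 20 probe sets, with points for the 3 treatments, a bar at their mean, an asterisk at the brightest probe set of a gene and dashed lines at 2-fold. All 3 points lie on one side of 0 for each probe set, 17 to the left and 3 to the right, which are the 2 of TFPI2 and 1 of PLAUR. The like share over all probe sets was not analysed here, and nothing is read from these counts.

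Over all 20 probe sets, 14 were at least 2-fold lower in Caov-3 and 3 at least 2-fold higher. Several of them belong to the same gene. The shares over all probe sets were not analysed here. By gene, 14.7% of all genes were at least 2-fold lower and 20.1% at least 2-fold higher. Nothing is read from these counts, as the list was chosen with the signals known. For genes with several probe sets the size of the difference ranged widely, from -7.97 to -2.76 for F2R and from -6.98 to -3.12 for TFPI. PLAU was the exception, with -3.19 and -3.29. The count of 7 genes at least 2-fold apart (34.8% of all genes were) was the same without the Caov-3 IL-6 array and without any 1 treatment in both lines.

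Several of these genes are also known from endothelium, platelets and monocytes, so markers of those cells were read on the same arrays. Of 9 endothelial markers, 8 lay below the median on every Caov-3 array and 7 on every SKOV-3 array, with summed signals of 592 to 1379 in Caov-3 and 304 to 425 in SKOV-3. PECAM1, the marker above the median on all arrays of both lines, was at 891, 331 and 1162 in Caov-3 and at 125, 158 and 176 in SKOV-3. CDH5, which defines endothelium, was at 69.8 at most on any array, and VWF at 21.4 at most in Caov-3 and 60.4 at most in SKOV-3. Platelet markers (5) summed to 366 to 529 in Caov-3 and 178 to 275 in SKOV-3, and leukocyte markers (7 of 8 measured) to 922 to 1098 in Caov-3 and 458 to 870 in SKOV-3, with 2 of them above the median on all Caov-3 arrays and 1 on all SKOV-3 arrays. CD14 was at 604, 573 and 667 in Caov-3 and at 135 at most in SKOV-3, CD79A at 149, 201 and 166 in Caov-3 and 211, 180 and 344 in SKOV-3, and PTPRC at 35.1 at most. Fibroblast markers (7) summed to 3987 to 4948 in Caov-3 and 388 to 501 in SKOV-3, of which COL1A1 made 3802 to 4826 in Caov-3 and 217 to 339 in SKOV-3. None of these marker genes was listed at exactly 0. The part of other cell types in the values of the 9 genes was not tested.

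The effect of treatment was asked within each line, as the fold of 1 array over another. Such a fold has no replicate check and no p-value. Beside it stands the robust SD of the folds of all genes in the same group by expression, which shows how far genes of like signal scattered between the same 2 arrays. F2R, TFPI and THBD were below the filter in Caov-3 and TFPI2 in SKOV-3, so that 6 genes were counted in Caov-3 and 8 in SKOV-3.

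With IL-6 against untreated, 0 of 6 genes in Caov-3 and 0 of 8 in SKOV-3 were at least 1.5-fold apart, where 11.2% and 7.62% of all genes were. The folds ran from -0.13 to 0.27 on the log2 scale in Caov-3 (median 0.06, against 0.08 for all genes) and from -0.09 to 0.34 in SKOV-3 (median -0.01, against -0.05 for all genes). F3, at 1851 with IL-6 and 1712 untreated in Caov-3, had a log2 fold of 0.11. In SKOV-3 F3 was at 12861 and 12952, a log2 fold of -0.01. PLAU was at 0.02 in Caov-3 and -0.01 in SKOV-3, and TFPI2 was at 0.00 in Caov-3. F2R in SKOV-3 was at 6400 with IL-6 and 5069 untreated, a log2 fold of 0.34 and 1.84 robust SDs, while its second probe set was at -0.08. TFPI in SKOV-3 was at -0.04 by its brightest probe set and at 0.17, 0.55, 0.37 and 0.19 by the others, so the direction depended on the probe set.

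With siltuximab plus IL-6 against IL-6 alone, 0 of 6 genes were at least 1.5-fold apart in Caov-3 (8.11% of all genes) and 1 of 8 in SKOV-3 (4.56% of all genes). That gene was F2R, at 4092 with siltuximab and IL-6 and 6400 with IL-6, a log2 fold of -0.64 and 5.48 robust SDs of genes of like expression. Its second probe set was at 415 and 406, a log2 fold of 0.03, so the fold rests on the 1 probe set that can detect related sequences. THBD was at 3753 and 4272 in SKOV-3, a log2 fold of -0.19 and 1.59 robust SDs, and both its further probe sets were lower with the antibody too. In Caov-3 PROCR was at 934 with siltuximab and IL-6 and 699 with IL-6, a log2 fold of 0.41, and the PLAU fold was -0.23. The second TFPI2 probe set was at 5259 and 3269 in Caov-3, a log2 fold of 0.68, where the brightest one was at -0.09.

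With siltuximab plus IL-6 against untreated, which shares arrays with both comparisons above, 1 of 6 genes in Caov-3 (5.27% of all genes) and 0 of 8 in SKOV-3 (6.73% of all genes) were at least 1.5-fold apart. The gene was PROCR, the protein C receptor, at 934 in Caov-3 with siltuximab and IL-6 and 576 untreated, with 699 after IL-6 alone. Its log2 fold was 0.68, or 3.30 robust SDs, and 99.1% of genes of like expression had a smaller fold. It has a single probe set, and the fold was 0.61 to 0.73 under the other settings tried. In SKOV-3 PROCR was at 2136 and 2392 on the same pair of treatments, a log2 fold of -0.16, and the difference between the lines was not tested. F3 was at 0.28 in Caov-3 and 0.05 in SKOV-3.

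**Figure D3:**
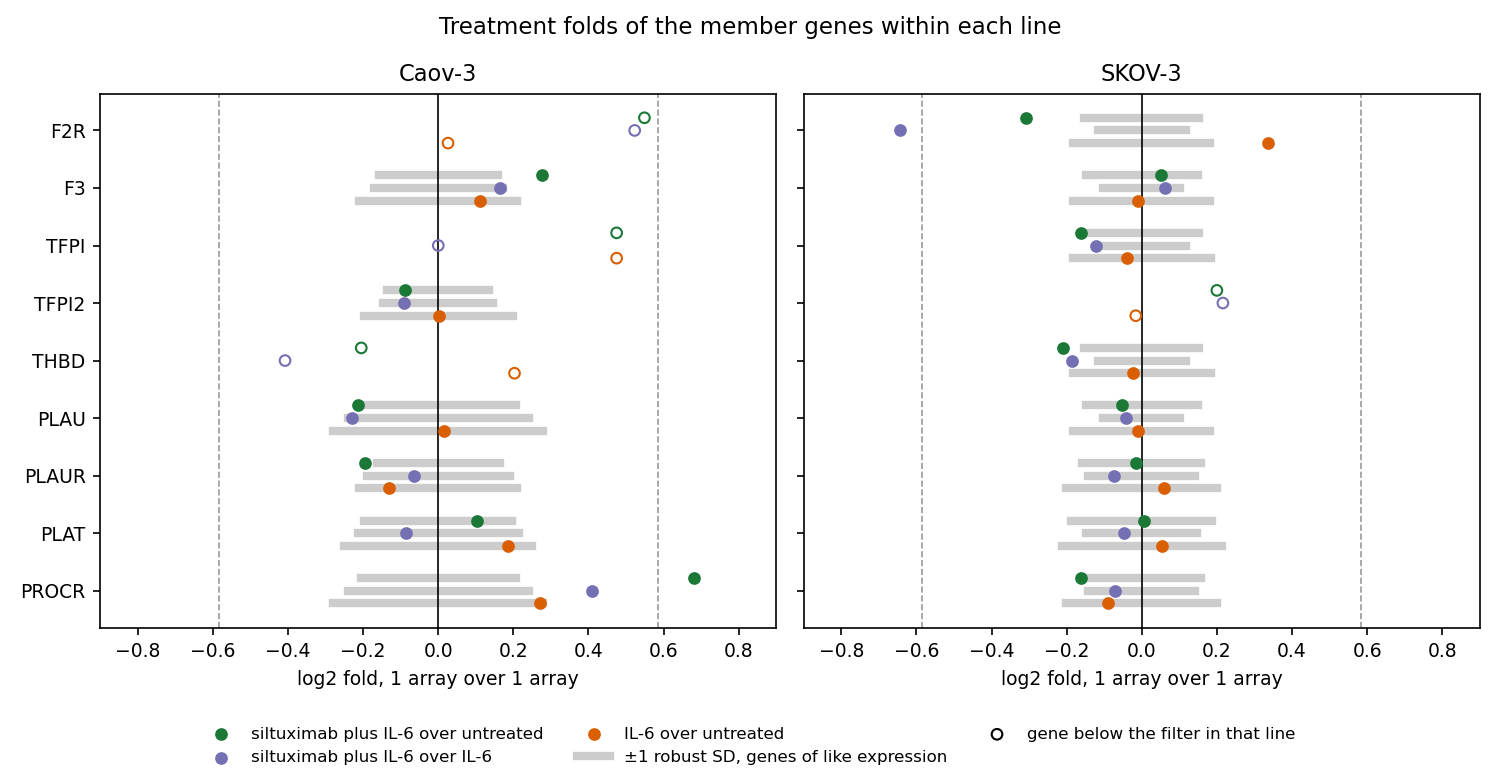
Log2 folds of 1 array over 1 array for the 9 genes in Caov-3 (left) and SKOV-3 (right), with grey bars for 1 robust SD of genes of like expression to each side of 0, dashed lines at 1.5-fold and open points for genes below the filter in that line. Filled points pass 1.5-fold only for PROCR in Caov-3 (0.68, siltuximab plus IL-6 over untreated) and F2R in SKOV-3 (-0.64, siltuximab plus IL-6 over IL-6).

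Over both lines, with the lines standing in for replicates, limma called 0 of the 9 genes for IL-6 against untreated, 0 for siltuximab plus IL-6 against IL-6 and 0 for siltuximab plus IL-6 against untreated. It also called 0 of 12290 genes for each, that is 0%. At an unadjusted p under 0.05 there were 1182 genes (9.62%), 398 (3.24%) and 705 (5.74%), of which 0 were among the 9. Adjusted p-values of the 9 genes, by limma with Benjamini-Hochberg adjustment over all genes, lay between 0.768 and 0.996 for IL-6. For siltuximab plus IL-6 they lay between 0.983 and 0.995 against IL-6 and between 0.866 and 0.975 against untreated. The log2 difference with IL-6 was 0.05 (SE 0.09) for F3, 0.18 (SE 0.29) for F2R and 0.09 (SE 0.20) for PROCR. The smallest unadjusted limma p among the 9 was that of THBD for siltuximab plus IL-6 against IL-6, at a log2 difference of -0.30 (SE 0.15) and an adjusted p of 0.983. The fit averages both lines, and F2R, TFPI and THBD in Caov-3 and TFPI2 in SKOV-3 were below the filter for folds within that line, so that part of each such value comes from dim signals. With 2 residual degrees of freedom these p-values do not show that the genes were unmoved.

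The other genes of coagulation and fibrinolysis were read from a list of 48, of which 46 had a probe set and 22 passed the filter. Of these, 5 were at least 2-fold higher in Caov-3 and 5 at least 2-fold lower, 45.5% together against 34.8% of all genes, with a median log2 difference of -0.10 against 0.07 for all genes. Many that did not pass encode plasma proteins known from liver, such as fibrinogen chains, prothrombin (F2) and plasminogen (PLG). F2RL2, a receptor of the same family as F2R, had a log2 difference of -4.54 ± 0.45, with -0.91 for its second probe set. THBS1, a matrix glycoprotein of platelets and tumours, was at -3.36 ± 0.84, with 6 further probe sets from -2.44 to 0.45. The plasminogen receptor genes PLGRKT and ENO1 were at -1.65 ± 0.32 and -1.16 ± 0.14, and the further probe sets of ENO1 at -0.58, -1.29 and -0.62. The phospholipid-binding ANXA5 was at -1.40 ± 0.13.

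Higher in Caov-3 were the membrane serine proteases ST14 (matriptase) at 5.08 ± 0.45 and HPN (hepsin) at 2.31 ± 0.06, each able to cleave substrates at the cell surface. ST14 was at 1871, 2020 and 2006 in Caov-3 and at 58.0, 45.2 and 25.9 in SKOV-3, and its further probe sets gave 5.35 and -0.44. The coagulation factor F8 was at 1.98 ± 0.13, and the vitamin K-dependent GAS6 and protein S (PROS1), a cofactor of protein C, at 1.67 ± 0.17 (second probe set 1.87) and 1.52 ± 0.18.

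**Figure D4:**
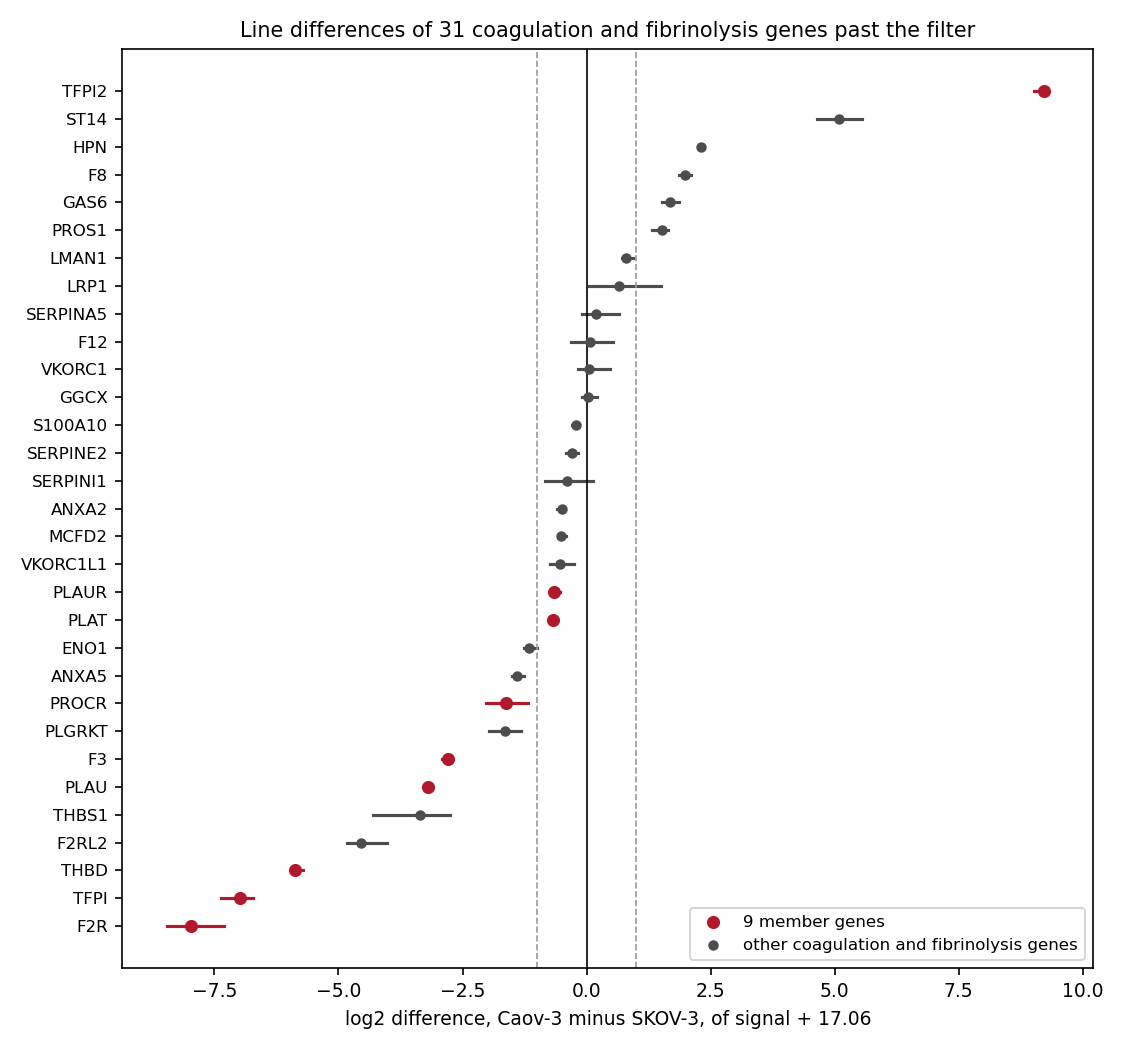
Log2 difference, Caov-3 minus SKOV-3, of the 9 genes (red) and the 22 further coagulation and fibrinolysis genes past the filter (grey), with lines from the lowest to the highest of the 3 treatment-matched differences and dashed lines at 2-fold. TFPI2 at 9.21 and F2R at -7.97 stand at the ends, and ST14 at 5.08 and F2RL2 at -4.54 are the outermost of the other genes.

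With treatment, limma called 0 of those 22 genes in each of the 3 comparisons, with 2 at an unadjusted p under 0.05 for IL-6 (9.62% of all genes), 0 for siltuximab plus IL-6 against IL-6 (3.24%) and 3 for siltuximab plus IL-6 against untreated (5.74%). The largest mean fold with IL-6 was that of MCFD2, part of the cargo receptor for factors V and VIII, at a log2 fold of 0.44 in Caov-3 and 0.42 in SKOV-3 (adjusted p 0.328 by limma). LRP1, which clears protease-inhibitor complexes, was at 0.44 and 0.10, and ST14 at 0.01 and 0.54, each in Caov-3 and SKOV-3 in turn. LRP1 signals with IL-6 and untreated were 142 and 99.6 in Caov-3 and 104 and 95.4 in SKOV-3. These lie around 111, the median of all named values. In SKOV-3 ST14 was at 45.2 with IL-6 and 25.9 untreated, under the array medians of 80.8 and 83.9. That ST14 fold thus comes from dim signals. THBS1 was at -0.67 in Caov-3 and 0.64 in SKOV-3 by its brightest probe set, and the difference between the lines was not tested.

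The gene with the values most like each member over the 6 arrays was sought among 12281 others, by the Euclidean distance of log2 values centred on each gene's mean. That distance is set mainly by the line difference. F3 lay nearest to TUBB2A (distance 0.17), PLAU to CMTM7 (0.20), PLAUR to AHR (0.09), PLAT to STRAP (0.06), PROCR to LDHC (0.20) and THBD to PTX3 (0.37). The genes near the ends of the scale had more distant neighbours, namely CCN2 for TFPI (0.48), ARMCX2 for TFPI2 (0.54) and P3H2 for F2R (0.98).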

How the data were processed

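Signals of 6 Affymetrix arrays were read from the deposited table. The deposited values are linear signal intensities per probe set, made by the authors with Affymetrix Expression Console and MAS5 per the submitters' processing notes (versions not given in the sources used here), and scaled by array. They hold no detection calls. Intensities were taken to log2 after adding 17.06, with no further normalization. Groups came from the sample titles, and symbols from the array annotation, in which 41037 of 41091 probe sets matched a current gene record. A gene was represented by its probe set of highest mean log2 value. For folds between 2 arrays, a gene counted if its higher signal reached the median of named probe sets on that array. Line differences and fits took genes that did so on at least 2 of the 6.

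The fit over both lines used limma 3.58.1 (R 4.3.3) on 12290 genes. Its terms were the treatment and the line, and its prior variance followed the mean level. On simulated data only the median of its estimates was required to match the planted change. How many planted changes it called is not given here. Other steps used Python 3.11.15. Named were all members, the 10 further pathway genes with the largest line difference, the 3 with the largest mean IL-6 fold, and the most like gene of each member. ERBB2 was singled out of its marker list after its values were seen. The members and gene lists were chosen with earlier results of these data known. Alternatives changed the pseudocount, the scaling, the filter, the probe sets used, the prior variance and the arrays included.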

Additional observations from a re-analysis of the deposited data

Results flagged for a closer look

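By its brightest probe set THBS1, the thrombospondin gene, moved opposite ways with IL-6 in the 2 lines, by more than 1.5-fold in each. In Caov-3 it was at 171 with IL-6 and 283 untreated, a log2 fold of -0.672. In SKOV-3 it was at 3722 with IL-6 and 2386 untreated, a log2 fold of 0.638. Each fold rests on 1 array over 1 array and on 1 probe set. The IL-6 folds of the further THBS1 probe sets were not analysed here. Their line differences ranged from -2.44 to 0.45, against -3.36 for the brightest. The Caov-3 IL-6 array had the lowest ratio of 5' to 3' ACTB signal (0.494), and the difference between the IL-6 folds of the lines was not tested. None of the 9 member genes moved opposite ways by more than 1.5-fold in each line.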

How the results depend on the processing

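The 7 genes at least 2-fold apart between the lines stayed 7 under every alternative tried (pseudocounts of 111 and 1, quantile normalization, cyclic loess, filters at the 75th percentile and none, the mean of all probe sets, probe sets not ending in _x_at or _s_at, and each array set left out, 7 to 7). Without _x_at and _s_at probe sets only 7 genes were measured, and PLAUR, at 1.01, took the place of PLAU. In the main setting 34.8% of all genes were at least 2-fold apart. The alternatives used the same 6 arrays, whose signals were known when the list was chosen, so nothing is read from the stable count. For siltuximab plus IL-6 over IL-6 in SKOV-3 the count of 1 became 0 with a pseudocount of 1, with cyclic loess (F2R at -0.55), with the mean of all probe sets (-0.31) and without _x_at or _s_at probe sets. F2R turned to 0.032 with the pseudocount of 1 and to 0.031 without those probe sets, since its second probe set then stood for the gene. For the same comparison in Caov-3 the count of 0 became 1 without such probe sets, through the second TFPI2 probe set (0.68). The size of the largest line differences depended on the pseudocount, with TFPI2 at 6.67 to 11.90 and TFPI at -4.69 to -8.85. THBD was at -4.68 with the pseudocount of 111 and -6.24 with that of 1. F2R was at -5.51 with the pseudocount of 111. With that of 1 F2R was at -3.19, where its second probe set stood for the gene. No fit called a member, also without the Caov-3 IL-6 array. The labels give no replicate numbers to pair by, and the line differences and the fit already match arrays by treatment and by line.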

Other observations

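Genes next to the 9 members in the GRCh38.p14 annotation were looked up after the values were seen, taking the nearest 2 past the filter on each side. Next to F2R, on one side, F2RL2 was at 9.93, 2.64 and 5.28 in Caov-3 and at 423, 543 and 592 in SKOV-3 (siltuximab plus IL-6, IL-6, untreated), and IQGAP2, a scaffold protein gene, had a log2 difference of -3.57 ± 0.09 (SD, n = 3 pairs of arrays). On the other side AGGF1 was at 0.19 ± 0.22 and ZBED3 at -0.31 ± 0.22. F2RL1, which lies nearer than those, was not analysed here. Around TFPI2, GNG11, a G protein subunit gene, was at 2.01 ± 0.22, BET1 at 1.39 ± 0.11 and VPS50 at 1.29 ± 0.13, whereas SAMD9L was at -1.09 ± 0.09. FOXA2, a transcription factor gene next to THBD, had signals of 4.17, 4.0 and 4.85 in Caov-3 and 173, 108 and 192 in SKOV-3. Neighbours of TFPI, F3 and PLAU, all lower in Caov-3, lay both ways, as did those of PLAUR, PLAT and PROCR. Around TFPI, ITGAV was at 0.67 and FAM171B at 0.76, whereas GULP1 was at -1.19 and WDR75 at -1.26. Around F3, SLC44A3 was at 2.87, ABCD3 at 1.07 and CNN3 at 0.11, whereas ARHGAP29 was at -2.98. Around PLAU, ZSWIM8 was at 1.68, CAMK2G at 1.39 and AP3M1 at 0.05, whereas VCL was at -1.08. Of the 36 neighbours, 12 were at least 2-fold lower in Caov-3 and 9 at least 2-fold higher, 58.3% together against 34.8% of all genes. What lies behind these differences was not tested.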
